A study of Mus musculus with 16 samples.

Results

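Genes that bring long-chain fatty acids into cells, bind them in the cytosol and activate them with coenzyme A were compared in gonadal white adipose tissue of fasted and fed mice. The set was named by symbol and held 10 genes, namely the fatty acid transport proteins Slc27a1 to Slc27a4, the long-chain acyl-CoA synthetases Acsl1, Acsl3, Acsl4 and Acsl5, and the fatty acid binding proteins Fabp4 and Fabp5. Of these, 8 were measured among the 22180 genes with a probe set of their own. Acsl1 had no probe set under its name in the platform annotation used, and the probe set that lists Acsl3 also lists Utp14b, so both were not analysed here. A gene with several probe sets was read from the brightest, by its mean over all 16 arrays.

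The 16 arrays came from male C57BL/6 mice aged 3 to 4 months, 8 samples after 16 hours without food and 8 samples from the fed condition, all collected in the morning. The comparison asks which transcripts of this fat depot change when food is withdrawn. Nothing in the labels states that the samples are different mice, and p-values therefore describe only how far these samples differ from each other. Adipocyte transcripts were plainly present (log2 RMA values, SD, n = 8 per group). Adipoq stood at 10.72 ± 0.13 in fasted and 10.84 ± 0.10 in fed arrays and was not called, Cidec was higher at 12.52 ± 0.06 in fasted and 12.27 ± 0.10 in fed arrays, and Plin1 was lower at 9.80 ± 0.18 in fasted and 10.64 ± 0.14 in fed arrays. Arrays also differed in transcripts typical of other tissues. The mean log2 level of 19 liver transcripts lay between 5.39 and 7.66 in fasted arrays and between 5.26 and 8.45 in fed arrays. The mean of 18 motile cilia genes was high in fasted replicate 7 at 4.83 and in fed replicate 2 at 5.36, against 3.51 at most in the other arrays. Which tissue these cilia transcripts came from was not tested. Values are log2 units throughout, and "called" means that limma gave an adjusted p below 0.05 (Benjamini-Hochberg, over all 22180 genes).

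Long-chain fatty acids reach adipocytes from lipoproteins and from albumin. Transport proteins of the Slc27 family (FATPs) take part in uptake and also carry acyl-CoA synthetase activity, and the Acsl enzymes join fatty acids to coenzyme A, which traps them in the cell and opens the way to triglyceride, phospholipid or oxidation. Fatty acid binding proteins carry the free acids through the cytosol, and Fabp4 is among the most abundant proteins of fat cells. In the fed state these steps feed storage, while in fasting lipolysis releases fatty acids, some of which are activated again inside the same cell.

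Fasting raised 2 of the 8 measured genes, Slc27a1 and Acsl4, and lowered none. The other 6 were not called. Over all genes 19.2% were called in either direction and 8.49% as higher, and 2 of 8 is too small a count to be read against that background. The same 2 genes were the ones whose fasted and fed arrays did not overlap, against 6.48% of all genes in either direction and 3.03% with fasted above fed. The median log2 fold change was 0.14 over the 8 genes and -0.0042 over all genes. With a filter on dim genes 7 of the 8 passed, Slc27a3 being the exception.

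**Figure D1:**
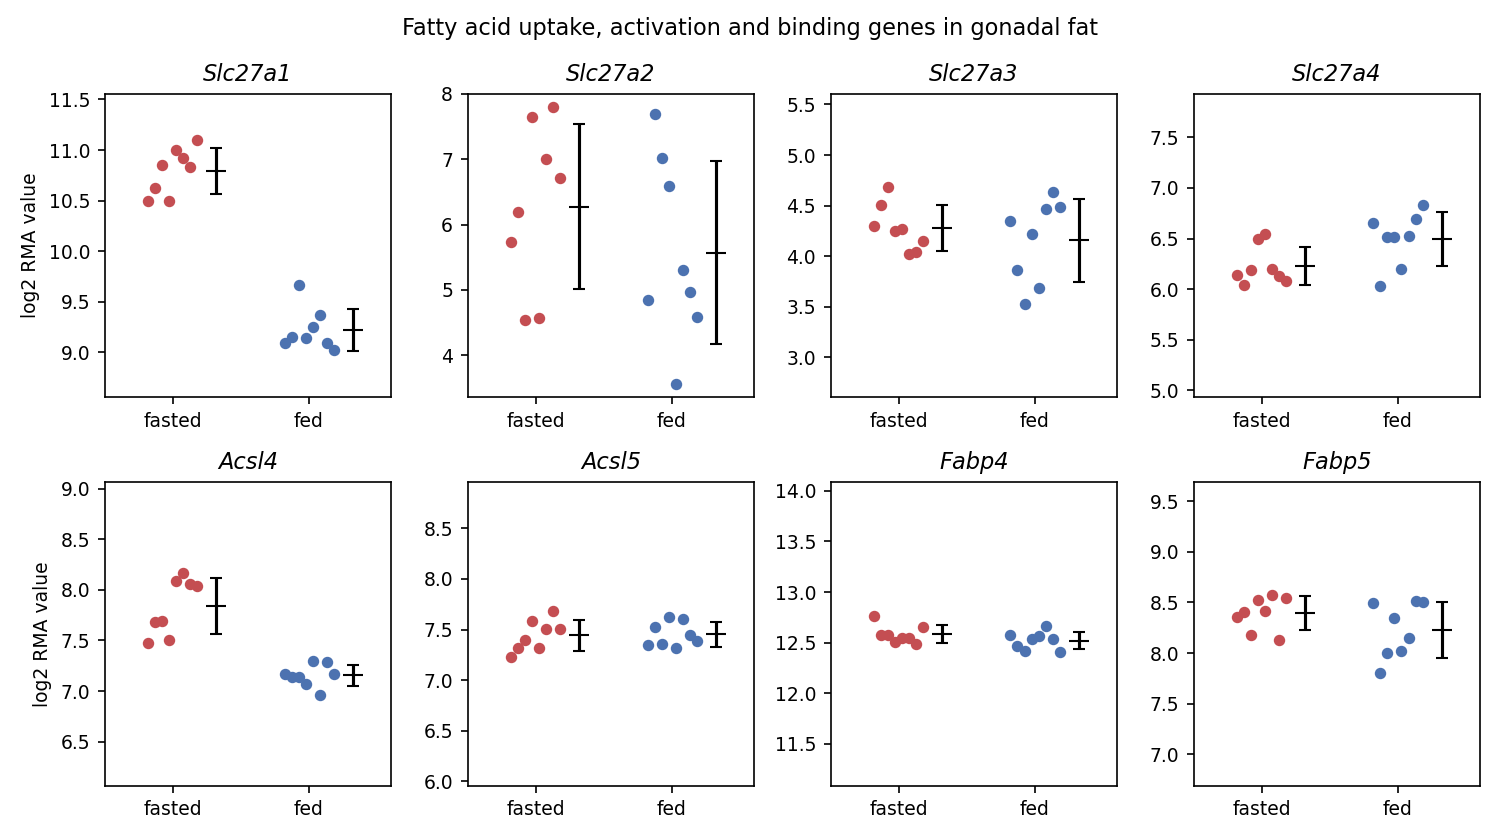
Log2 RMA value of each measured gene in 8 fasted (red, left) and 8 fed (blue, right) arrays, with mean and SD beside the points. Every panel spans 3 log2 units except that of Slc27a2, which spans more. The 8 fasted arrays lie above the 8 fed arrays for Slc27a1 and Acsl4, and the groups overlap for the other 6 genes.

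The promoter regions of the genes that rose, and of a paralog of each that did not pass the test, show the DNA beside which these transcripts start. Sequences are from RefSeq on GRCm38.p6, written 5′ to 3′ on the strand of the gene, with a matched motif in capitals. The first is the stretch just before the 5′ end of Slc27a1 in RefSeq, with a CCAAT box, and the next lies before a further start inside the gene, with an E-box. Slc27a4 is shown for the 250 bases before its start, in which none of the searched motifs was found. Acsl4 is shown around a CREB-type element, and Acsl5 around AGAACA, which is only one arm of the glucocorticoid receptor site and is common in promoters.
Slc27a1, chr8:71568621-71568727, plus strand: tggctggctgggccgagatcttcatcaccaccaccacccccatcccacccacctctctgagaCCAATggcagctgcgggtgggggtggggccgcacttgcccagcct
Slc27a1, chr8:71570380-71570409, plus strand: ggggtgtctagcCACGTGgtcagtgcttgg
Slc27a4, chr2:29802384-29802633, plus strand: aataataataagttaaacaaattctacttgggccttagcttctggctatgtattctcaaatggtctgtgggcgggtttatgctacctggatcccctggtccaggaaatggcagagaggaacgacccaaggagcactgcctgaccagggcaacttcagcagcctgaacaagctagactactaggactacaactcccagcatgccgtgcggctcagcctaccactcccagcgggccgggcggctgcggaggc
Acsl4, chrX:142390637-142390666, minus strand: cctttttggcggTGACGTCcttagtgagcg
Acsl5, chr19:55253339-55253368, plus strand: tgctgaggtgtaagaggggtcacAGAACAc

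RefSeq gave 8 start sites for 6 of the 8 measured genes, 3 of them for Slc27a1, and the 250 bases before each were searched on both strands. The E-box CACGTG was found before 1 of the 8 starts, a start of Slc27a1, and before 6.02% of 32851 starts in the table. The CREB element TGACGTC was found before the start of Acsl4 and before 2.78% of all starts, while its palindrome TGACGTCA, which contains it, was found before none of the 8 and before 1.55% of all. The PPAR-RXR direct repeat, the FOXO site GTAAACA, the full glucocorticoid receptor site and the SREBP site matched none of the 8, against 0.0335%, 3.17%, 0.0365% and 0.192% of all starts. The nuclear receptor element AGGTCA, which is part of the PPAR-RXR repeat, was found for Slc27a2 and in 14.0% of all windows, and AGAACA, which is part of the glucocorticoid receptor site, for Slc27a3 and Acsl5 and in 16.1% of all. CCAAT matched 4 of the 8 windows, belonging to Slc27a1, Slc27a3 and Acsl5, and 33.8% of all. The TATA box TATAAA matched none of the 8 and 12.4% of all. These matches describe letters in the windows only.

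Slc27a1 (FATP1) is the transporter of this family best known from adipocytes and muscle, where insulin moves the protein to the cell surface. Its lowest, median and highest values were 10.50, 10.85 and 11.10 in fasted arrays, against 9.02, 9.15 and 9.66 in fed arrays. All 8 fasted arrays were above every fed array, and the gap between the groups was wider than the range within either. The mean was 10.79 ± 0.23 in fasted and 9.22 ± 0.21 in fed arrays (SD, n = 8 each), a log2 fold change of 1.57 (SE 0.11) or 2.96-fold (95% interval 2.54 to 3.46; limma adjusted p = 6.04e-09). Among all 22180 genes 55 had a larger rise.

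The 3 genes whose level followed Slc27a1 most closely from array to array, after the group means were taken out, were Zscan26, Xab2 and Aldh6a1, with Pearson's r of 0.91, 0.90 and 0.88 over 16 arrays, the highest among 10319 genes with an ordinary symbol and a linear mean of at least 20. Zscan26 encodes a zinc finger protein, Xab2 a protein of splicing and transcription-coupled repair, and Aldh6a1 a mitochondrial dehydrogenase of valine breakdown. Zscan26 and Xab2 also rose, by 0.52 and 0.44 (limma adjusted p = 4.44e-04 and 2.17e-04), while Aldh6a1 had a log2 fold change of 0.051 (adjusted p = 0.770).

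Slc27a4 (FATP4), the main transporter protein of the intestine and also present in fat, was lower in fasted arrays without passing the test. It stood at 6.04, 6.17 and 6.54 in fasted arrays and at 6.03, 6.52 and 6.83 in fed arrays (lowest, median, highest). The groups overlapped, although only 1 fasted array was above the fed median. The log2 fold change was -0.27 (95% interval -0.50 to -0.039; limma adjusted p = 0.103). Fed replicate 2 had the lowest of the fed values, and without that array the log2 fold change was -0.34 and the gene was called (adjusted p = 0.0221). Without fed replicates 2 and 3 and fasted replicate 7, it was -0.33 (limma adjusted p = 0.0520). Of these arrays fed replicate 3 had the highest liver mean of all, and the others had the highest cilia means. Not all arrays with high liver transcripts were left out. Fed replicate 4 and fasted replicate 4 were kept, with liver means of 8.07 and 7.66 against 7.57 in fasted replicate 7.

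Slc27a3 (FATP3), a family member with synthetase activity and little known transport, was dim. Its values ran over 4.02, 4.26 and 4.68 in fasted arrays and 3.53, 4.29 and 4.64 in fed arrays (lowest, median, highest), and 6 of the 16 arrays reached a linear value of 20. The log2 fold change was 0.12 (95% interval -0.20 to 0.44; limma adjusted p = 0.688).

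Slc27a2 (FATP2) is a very long-chain acyl-CoA synthetase best known from liver and kidney. It had by far the widest spread of the 8 genes, with 4.54, 6.45 and 7.81 in fasted arrays and 3.56, 5.14 and 7.69 in fed arrays (lowest, median, highest). The groups overlapped over most of that range, and the log2 fold change of 0.70 (95% interval -0.53 to 1.93) was not called (limma adjusted p = 0.504). Single arrays moved it over 0.42 (without fed replicate 5) to 1.01 (without fed replicate 2), with no call. The gene's second probe set was near the floor of the arrays, at 2.86 ± 0.17 in fasted and 2.69 ± 0.18 in fed arrays (SD, n = 8), with a log2 fold change of 0.17 (limma adjusted p = 0.231 over all probe sets with 1 symbol).

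The level of Slc27a2 moved with the liver transcripts in fasted arrays. Within the fasted arrays Pearson's r with the mean of the 19 liver transcripts was 0.99 and Spearman's rho 0.929 (exact permutation p = 1.98e-04 and 0.00223, two-sided, n = 8; adjusted p = 0.00317 and 0.0357 over 16 relations, 8 genes in 2 groups). When fasted replicates 3 and 5, the 2 with the most distant liver means, were left out, r was 0.980. Within the fed arrays r was 0.870 and rho 0.714 (exact permutation p = 0.00771 and 0.0576, n = 8; adjusted p = 0.0617 and 0.230), and r was 0.737 without fed replicates 2 and 3. With the liver mean as a covariate the log2 fold change of Slc27a2 was 0.81 and passed the test (limma adjusted p = 0.0372), and without fed replicates 2 and 3 and fasted replicate 7 it was 1.08 and did not (adjusted p = 0.184). The liver list itself had 0 of 19 genes called in either direction, 0 of them dim. None of the other 14 relations passed the adjustment by either coefficient. The nearest was Acsl5 in fasted arrays, with r = 0.723 and rho = 0.786 (exact permutation p = 0.0447 and 0.0279, n = 8; adjusted p = 0.238 and 0.223) and r = 0.941 without fasted replicates 3 and 5. For Slc27a1 r was -0.270 in fasted and 0.282 in fed arrays (exact permutation p = 0.506 and 0.542, n = 8 each).

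**Figure D2:**
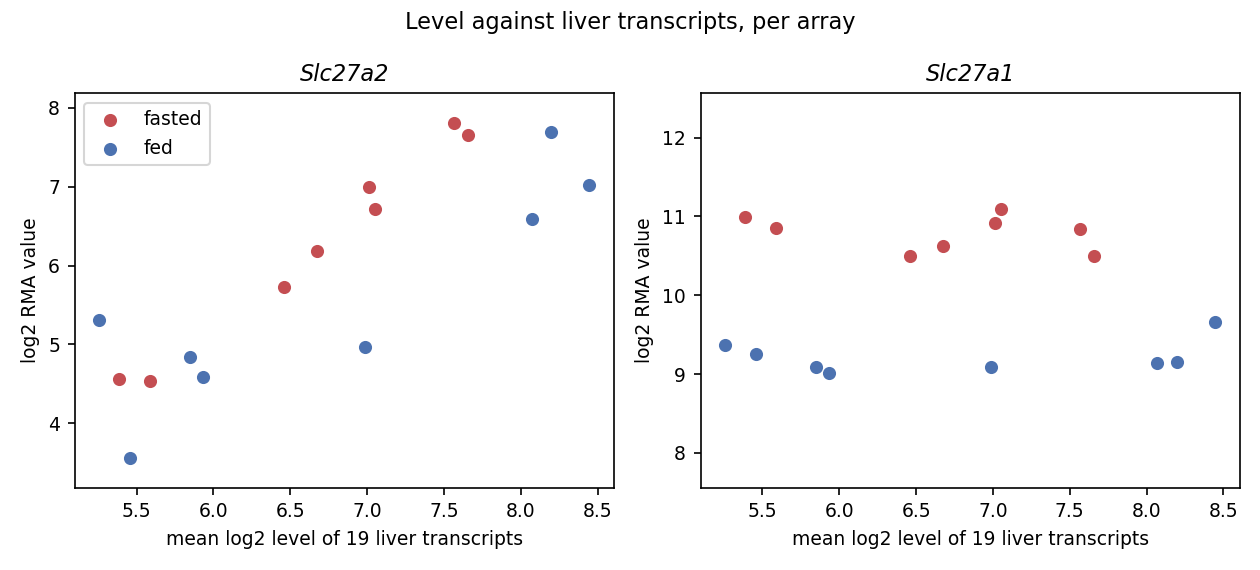
Log2 RMA value of Slc27a2 (left) and Slc27a1 (right) against the mean log2 level of 19 liver transcripts in each array, fasted in red and fed in blue. Slc27a2 follows the liver mean closely in fasted arrays (r = 0.99) and more loosely in fed arrays (r = 0.870, not passing the adjustment), and all Slc27a1 values of fasted arrays lie above those of fed arrays.

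Acsl4 encodes the synthetase that prefers arachidonic and other polyunsaturated fatty acids and supplies them to phospholipids. It stood at 7.48, 7.87 and 8.17 in fasted arrays and at 6.96, 7.15 and 7.29 in fed arrays (lowest, median, highest), with no overlap. Its mean was 7.84 ± 0.28 in fasted and 7.15 ± 0.11 in fed arrays (SD, n = 8 each), a log2 fold change of 0.68 (SE 0.10) or 1.61-fold (95% interval 1.38 to 1.87; limma adjusted p = 7.68e-05). Its fasted arrays fell at separate levels. Fasted replicates 5, 6, 7 and 8 stood at 8.09, 8.17, 8.06 and 8.04, and fasted replicates 1, 2, 3 and 4 at 7.48, 7.68, 7.69 and 7.50, all above the highest fed array.

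The genes most like Acsl4 after the group means were taken out were Nr4a3, Slc25a25 and Vnn1, with r of 0.91, 0.91 and 0.90 over 16 arrays. Nr4a3 is an orphan nuclear receptor that cAMP induces quickly, Slc25a25 a mitochondrial ATP-magnesium carrier, and Vnn1 a pantetheinase that recycles a precursor of coenzyme A. Nr4a3 was 7.68, 8.11, 7.88 and 7.79 in fasted replicates 5 to 8 and 6.85, 6.87, 6.84 and 6.18 in fasted replicates 1 to 4, against at most 4.30 in fed arrays. The same 4 fasted arrays were thus the highest for Acsl4 and Nr4a3, and they were the highest for Slc25a25 and Vnn1 as well. Apart from the replicate number, whose order the split follows, the labels give no difference between these fasted samples. What that order stands for is not stated. Slc27a1 showed nearly the same split, with 11.00, 10.92, 10.84 and 11.10 in fasted replicates 5 to 8. In fasted replicates 1 to 4 it was 10.50, 10.63, 10.85 and 10.50, so that fasted replicate 3 lay above fasted replicate 7. Slc25a25 rose by 1.03, against 3.46 for Nr4a3 and 3.23 for Vnn1 on the log2 scale (limma adjusted p = 4.26e-04, 4.82e-09 and 4.05e-10).

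Acsl5, the synthetase of mitochondria and endoplasmic reticulum that is abundant in intestine, showed no detectable difference. It was 7.44 ± 0.15 in fasted and 7.45 ± 0.12 in fed arrays (SD, n = 8 each), a log2 fold change of -0.0089 with a 95% interval from -0.17 to 0.15 (limma adjusted p = 0.964). Fasted values ran between 7.23 and 7.69 and fed values between 7.31 and 7.63.

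Fabp4 (aP2), the main cytosolic fatty acid binding protein of adipocytes, was bright, near the top of the values on these arrays, where a change may be understated. It stood at 12.58 ± 0.09 in fasted and 12.52 ± 0.09 in fed arrays (SD, n = 8 each), a log2 fold change of 0.063 with a 95% interval from -0.061 to 0.19 (limma adjusted p = 0.561). Fasted values ran between 12.49 and 12.77 and fed values between 12.41 and 12.66, so the groups overlapped. Fabp5, the epidermal form that adipocytes and macrophages also make, was 8.39 ± 0.17 in fasted and 8.23 ± 0.27 in fed arrays, a log2 fold change of 0.16 (95% interval -0.065 to 0.39; limma adjusted p = 0.371). Its lowest, median and highest values were 8.13, 8.41 and 8.58 in fasted arrays and 7.80, 8.24 and 8.51 in fed arrays, which overlapped. Of its 4 probe sets the other 3 gave log2 fold changes of 0.16, 0.066 and 0.068, none of them called. Their levels were lower, with means of 8.18, 7.01 and 5.48 in fasted arrays and 8.01, 6.95 and 5.41 in fed arrays. Fabp5 has close pseudogene copies in the genome, so its probe sets can share signal with them. Fabp5 and Fabp4 lie in 1 cluster with Pmp2, Fabp9 and Fabp12 on chromosome 3.

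**Figure D3:**
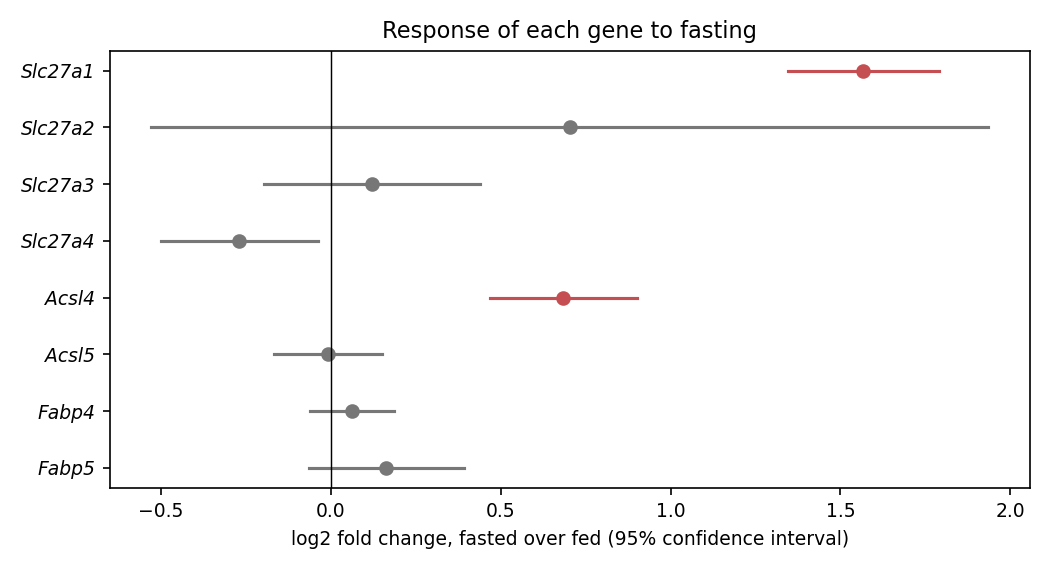
Log2 fold change of each measured gene, fasted over fed, with its 95% confidence interval from limma (n = 8 per group), red where called. Slc27a1 at 1.57 and Acsl4 at 0.68 stand clear of 0, and the interval of Slc27a2 runs between -0.53 and 1.93.

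Paralogs were compared by their response, as the difference of the paralogs' log2 values within each array, since the levels of different probe sets cannot be set against each other. Of 8 pairs within the families, 4 differed in response after Benjamini-Hochberg adjustment over the 8 pairs (exact permutation test over all 12870 regroupings of 16 arrays, two-sided). Slc27a1 exceeded Slc27a4 in its change by 1.84 (95% interval 1.48 to 2.20), with exact p = 1.55e-04, the smallest these permutations can give, and adjusted p = 8.29e-04. In that pair the within-array difference did not overlap between fasted and fed arrays. Slc27a1 minus Slc27a3 was 1.45 (95% interval 0.94 to 1.96; exact p = 3.11e-04, adjusted p = 8.29e-04). Slc27a3 is dim, so its pairs compare a gene with a probe set near background, on which a change may be understated.

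Acsl4 exceeded Acsl5 by 0.69 (95% interval 0.44 to 0.95; exact p = 3.11e-04, adjusted p = 8.29e-04), so these synthetases responded unequally to food withdrawal. Slc27a3 and Slc27a4, neither of which was called alone, differed by 0.39 (95% interval 0.066 to 0.71; exact p = 0.0166, adjusted p = 0.0333). That last call did not survive leaving out a single array in 9 cases, which were fed replicate 1, 3, 4, 5 or 8 or fasted replicate 1, 2, 3 or 8 (exact test, adjusted p = 0.0507 to 0.0737), and without fed replicates 2 and 3 and fasted replicate 7 (0.0783).

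The 3 pairs with Slc27a2 did not pass, with differences of 0.86 for Slc27a1 minus Slc27a2, 0.58 for Slc27a2 minus Slc27a3 and 0.97 for Slc27a2 minus Slc27a4 (exact permutation, adjusted p = 0.290, 0.440 and 0.290). Their 95% intervals spanned -0.56 to 2.29, -1.03 to 2.20 and -0.54 to 2.49. All include no difference and extend farther in the positive direction, so no difference and a large positive one cannot be told apart. Leaving out single arrays moved Slc27a1 minus Slc27a2 over 0.55 (without fed replicate 2) to 1.16 (without fed replicate 5). Fabp4 and Fabp5 differed by -0.10 in response (95% interval -0.35 to 0.15; exact p = 0.394, adjusted p = 0.440).

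**Figure D4:**
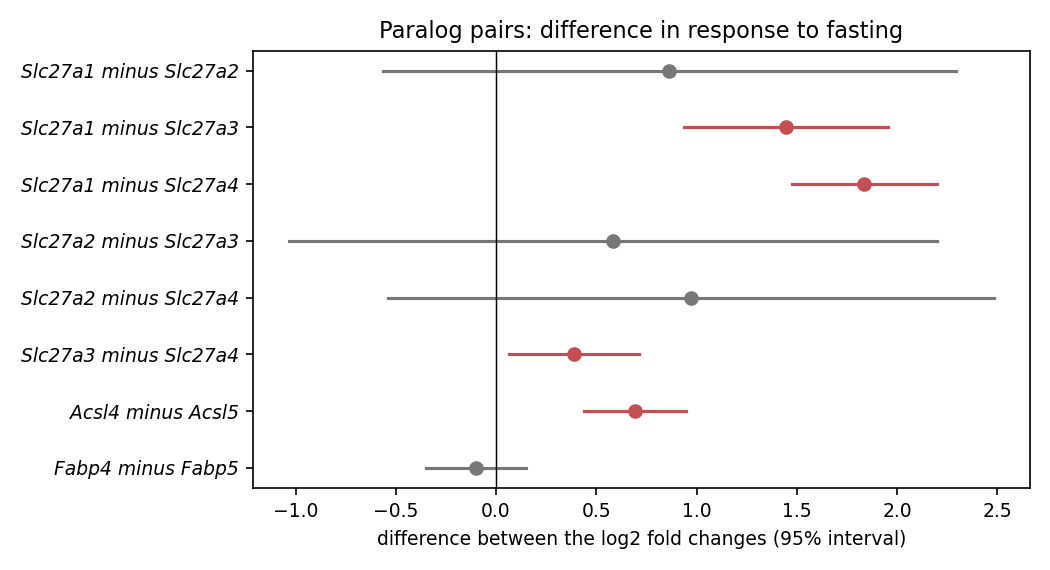
Difference between the log2 fold changes of the members of each paralog pair, fasted over fed, with 95% intervals (n = 8 per group), red where the exact permutation test passed after adjustment over 8 pairs. Slc27a1 minus Slc27a4 is the largest at 1.84, and the pairs with Slc27a2 have the widest intervals.

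Other genes of the same route were taken from 5 lists, in which 62 of 64 genes were measured. Of these, 8 rose, 15 fell and 39 were not called, with a median log2 fold change of -0.051, against -0.0042 over all genes, of which 8.49% were called higher and 10.7% lower. In the list of delivery and plasma membrane entry 3 of 16 rose and 6 fell. Gpihbp1, which anchors lipoprotein lipase on capillaries, rose 2.01-fold (limma adjusted p = 6.55e-07). Mfsd2a, a carrier of lysophosphatidylcholine, rose 2.12-fold (adjusted p = 0.00118) but was dim, with 2 of 16 arrays at a linear value of 20. Cavin2, a coat protein of caveolae, rose by 0.30 (adjusted p = 0.0159) and was named after its value was seen. Against these rises the other caveolar genes called were lower. Cavin3, which helps shape caveolae, fell by 1.32 on the log2 scale, Cav2 by 0.90 and Cav1, their main structural protein, by 0.78 (limma adjusted p = 5.11e-08, 9.41e-07 and 1.25e-07). The remaining 3 that fell, named after their values were seen, were the lipoprotein receptor gene Vldlr by 0.61, the lipase maturation factor Lmf1 by 0.47 and the fatty acid receptor Ffar4 by 0.37 (adjusted p = 2.04e-05, 8.12e-05 and 0.0144). Cd36, of the same list and also named after its value was seen, was not called (log2 fold change 0.14, limma adjusted p = 0.0900). Its 8 fasted arrays lay above every fed array, as was so for 3.03% of all genes.

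None of the 8 other fatty acid binding proteins was called by limma, 0 of them at an unadjusted p under 0.05 except Pmp2, the myelin member of the family (log2 fold change 0.31, adjusted p = 0.132), and 2 of the 8 passed the filter on dim genes. Of 13 other acyl-CoA synthetases 2 rose and 3 fell, and 7 passed the filter on dim genes. The shares over all genes were 8.49% higher and 10.7% lower, and lists this short cannot be read against them. Acss2, which makes acetyl-CoA from acetate in the cytosol, fell 3.08-fold (limma adjusted p = 1.62e-07). Aacs, which activates acetoacetate for lipid synthesis, fell 1.54-fold and Acsf3, the mitochondrial malonyl-CoA synthetase, 1.40-fold (adjusted p = 0.00211 and 5.32e-05). Acss3, a mitochondrial propionate-activating enzyme, rose 1.37-fold and Acsf2, of medium-chain activation, 1.20-fold (adjusted p = 0.0101 and 0.0140).

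Of 8 acyl-CoA binding genes, the acyl-CoA binding protein gene Dbi fell by 0.34 and Acbd4 by 0.46, and the sterol carrier gene Scp2 rose by 0.32 (limma adjusted p = 0.00143, 0.00458 and 0.0426). Among 17 genes that use acyl-CoA next, 2 rose and 4 fell. Both lists are too short to be read against the shares over all genes, 8.49% higher and 10.7% lower. Dgat2 and Agpat2, of triglyceride synthesis, fell by 2.35 and 1.22 on the log2 scale, Crot, the peroxisomal carnitine octanoyltransferase, fell by 0.59, and Gpat3, which starts glycerolipid synthesis and was named after its value was seen, fell by 0.42 (limma adjusted p = 7.57e-09, 7.28e-07, 6.50e-05 and 0.0183). Their paralogs Gpam, Gpat4 and Dgat1, also named after their values were seen, were not called. Their log2 fold changes were 0.36, -0.074 and 0.16 (limma adjusted p = 0.0701, 0.678 and 0.429). The acyl-CoA thioesterases Acot1 and Acot2, which release the free acid again, rose 2.14-fold and 1.42-fold (adjusted p = 0.00532 and 0.00681), with Acot1 dim.

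**Figure D5:**
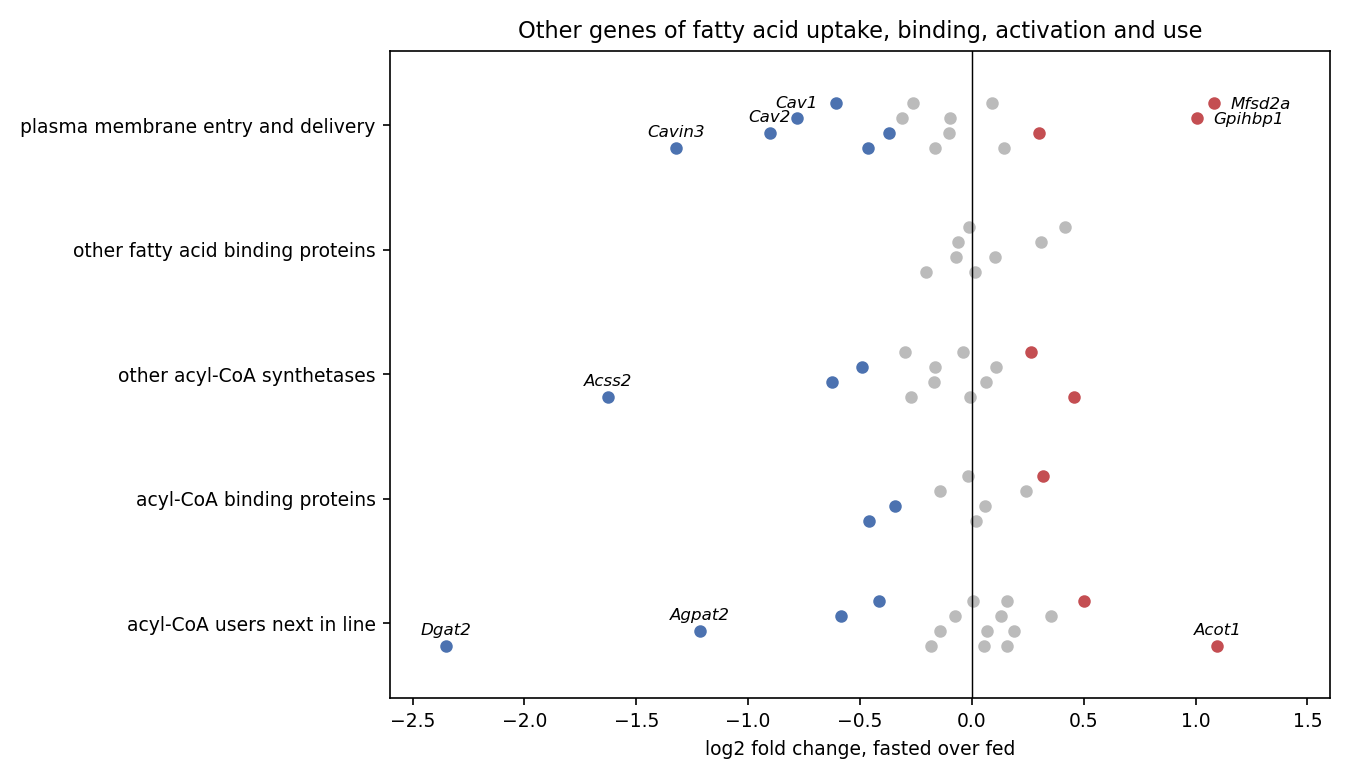
Log2 fold change, fasted over fed, of the 62 measured genes of 5 related lists, 1 point per gene (vertical position within a list has no meaning), red where called higher, blue where called lower and grey where not called. Dgat2, Acss2 and Cavin3 lie farthest to the left, and Acot1, Mfsd2a and Gpihbp1 farthest to the right.

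In bulk tissue, fewer cells of a type and less RNA per cell cannot be told apart. The mean of 7 adipocyte genes other than Fabp4 lay between 10.36 and 10.73 in fasted arrays and between 10.72 and 11.06 in fed arrays, with averages of 10.54 in fasted and 10.95 in fed arrays. Of these 7 genes 1 was called higher, 3 lower and 0 were dim, and their median log2 fold change was -0.12. Plin1, which coats the lipid droplet, fell by 0.84 with no overlap (limma adjusted p = 6.95e-07), while Cidec rose by 0.25 with no overlap (adjusted p = 0.00470). Adipoq, Lipe and Pparg, at -0.12, -0.0093 and 0.0072, were not called (limma adjusted p = 0.284, 0.947 and 0.981). The lower mean was thus not shared by all genes of the list. Of 12 macrophage genes 4 were higher and 1 lower, their mean lying between 8.19 and 8.77 in fasted and 8.19 and 8.39 in fed arrays. Of 12 endothelial genes 3 were higher and 0 lower, with means between 8.32 and 8.63 in fasted and 8.05 and 8.58 in fed arrays. Of 8 progenitor genes 0 were higher and 2 lower, with means between 8.68 and 9.42 in fasted and 8.98 and 9.26 in fed arrays. The motile cilia list had 0 of 18 genes called and 18 dim, the epithelial and mesothelial list 0 of 10 higher and 1 lower, the skeletal muscle list 1 of 10 higher, and the T and B cell list 0 of 8 called. Over all genes 8.49% were called higher and 10.7% lower, and these lists are too short to be read against those shares. The part of these cell types in the results above was not tested.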

How the data were processed

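Per the labels' protocols, 100 ng of total RNA per sample was labelled for Affymetrix whole-transcript arrays. The deposited values are log2 values, and RMA (background correction, normalization between arrays, summary per probe set) is named in the submitters' processing notes. The sources used here name no software version, filter or batch. Of 41345 probe sets, 25335 were annotated, 23521 with 1 symbol and 1814 with several. Those with 1 symbol covered 22180 genes. Fasted and fed arrays were compared on the deposited log2 values in R 4.3.3 by limma 3.58.1 (a linear model of group alone, then eBayes). The fit was also run on simulated data with independent noise for each gene. Those data lack the differences in liver and cilia transcripts between arrays, so that run does not check the calls made here. Intervals of paralog differences use the pooled spread of both groups. A gene was dim when fewer than 8 arrays reached a linear value of 20. The members and lists were chosen with earlier results of these data known. Named were all members, up to 5 called genes of each list by size (or, without calls, that with the smallest p) and the 3 genes most like each called member. The number of arrays limits the precision. Alternatives were the filter, scaling, eBayes settings, array weights, replicate block, probe set, rank sum test, threshold, arrays left out and a liver covariate. Figures were drawn with matplotlib 3.10.9.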

Additional observations from a re-analysis of the deposited data

How the results depend on the processing

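Slc27a1 and Acsl4 were called under every alternative run, including each array left out, with log2 fold changes of 1.52 to 1.63 and 0.64 to 0.74. Fabp4, Fabp5, Acsl5 and Slc27a3 were called under none. Slc27a3 had no value with the dim filter. Slc27a2 was called only with the liver covariate (0.81, adjusted p = 0.0372). Leaving out single arrays gave Slc27a4 log2 fold changes of -0.34 to -0.22, called only without fed replicate 2, so that 0 to 1 genes counted as lower. Slc27a3 minus Slc27a4 ranged over 0.30 to 0.44 with single arrays left out and was 0.33 without fed replicates 2 and 3 and fasted replicate 7. With the lowest probe sets, Slc27a1 minus Slc27a2 was 1.40 and Slc27a2 minus Slc27a4 0.44, both passing, but that probe set of Slc27a2 is near the floor, so this says nothing about the paralogs. At adjusted p under 0.01, 1214 genes were higher and 1552 lower, against 1883 and 2368, and 4 of the related list genes were higher, against 8. Leaving out single arrays, chosen for these lists after seeing the data, gave 7 to 11 higher and 15 to 17 lower. Higher calls made up 44.3% of 4251, and 54.7% of 3817 after subtraction of array medians. The labels do not say whether replicate numbers pair the samples. Same-numbered arrays correlated at -0.22 to 0.22 after group means were removed, 2 of 8 pairs above 0.1. Of 8 fasted arrays 1 was most like the fed array of its number. Such correlations cannot show that pairing is absent. With the replicate block 3829 genes were called, and Slc27a3 minus Slc27a4, at 0.39, had adjusted p = 0.0938 (exact sign-flip test). No detection measure came with the arrays, so a limit by signal over background is not given.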

Other observations

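The 8 measured genes did not vary as a block from array to array. Over the 16 arrays, after the group means were taken out, the highest correlations among pairs of members were 0.681 for Slc27a4 with Fabp5, 0.631 for Slc27a2 with Acsl5 and 0.529 for Slc27a1 with Acsl4, and the lowest was -0.475 for Slc27a1 with Slc27a3. These are descriptions over arrays that differ in their levels of liver and cilia transcripts. At liver means of 7.66 and 7.57, fasted replicates 4 and 7 had Slc27a2 at 7.65 and 7.81, and at still higher liver means of 8.45, 8.20 and 8.07, fed replicates 3, 2 and 4 had it at 7.02, 7.69 and 6.60. At liver means of 5.39 and 5.59, fasted replicates 5 and 3 had Slc27a2 at 4.57 and 4.54, and at 5.26 and 5.46, fed replicates 6 and 5 had 5.31 and 3.56.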
